A study of Homo sapiens with 6 samples.

Results

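The genes described are 10 amino acid transporters of the plasma membrane: SLC7A5, SLC3A2, SLC7A11, SLC7A1, SLC1A5, SLC1A4, SLC1A3, SLC38A1, SLC38A2 and SLC43A1. They were taken by symbol from a table of 20111 genes, and all 10 passed the filter on low values that left 11690 genes to test. The list was selected on expression values of these same libraries, the differences between the siRNAs included, so the values of the 10 genes are given as a description. No p-value is printed for them; whether one passed the threshold used for all genes is stated only to place it among them and supports nothing. RNA was sequenced from MDA-MB-231, an established human breast cancer line labelled triple negative. Cells had received a small interfering RNA (siRNA) against NCOA3, one against SHC1 or a control siRNA, named siNCOA3, siSHC1 and siControl. They were collected at 24 h and at 48 h, with 1 library for each siRNA and time and 6 libraries in all. NCOA3 encodes a nuclear receptor coactivator, and SHC1 an adaptor protein that links receptor tyrosine kinases to Ras signalling. All groups share the line and the transfection, no source used here gives the sequence of an siRNA, and nothing in the labels says that the libraries came from separate cultures.

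Cells take up amino acids through carriers that differ in substrate and in what drives them. Exchangers such as SLC7A5 and SLC1A5 bring in one amino acid as another leaves, sodium-coupled carriers such as SLC38A1 and SLC38A2 concentrate small neutral amino acids, and facilitative carriers such as SLC43A1 let large neutral amino acids move down their gradient. SLC7A5 and SLC7A11 are light chains that reach the cell surface bound to the heavy chain SLC3A2. Leucine that enters through SLC7A5 is a known input to the growth kinase complex mTORC1, and in tumour cells SLC7A5, SLC1A5 and SLC7A11 are much studied as routes for leucine, glutamine and cystine.

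Levels are FPKM as deposited, that is, fragments scaled by gene length and by the size of the library. Because FPKM are per length, levels can be set side by side between genes. Differences are on the scale log2(scaled FPKM + 1). Fitted differences come from one limma model over all 6 libraries with additive terms for siRNA and time, and are given ± the standard error with 2 libraries for each siRNA. Since the 2 libraries of an siRNA are 2 time points, that error holds both library noise and any way in which the response differed between the times. A gene is called where its Benjamini-Hochberg adjusted p from limma, over all 11690 genes, was under 0.05.

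Both targets were low in their own libraries. SHC1 stood at 102.5 and 118.7 FPKM in siControl at 24 h and 48 h, at 108.6 and 106.8 in siNCOA3 and at 14.7 and 15.46 in siSHC1, where 13.4% and 13.3% of the siControl level of the same time remained. NCOA3 stood at 10.29 and 11.41 FPKM in siControl, 1.716 and 1.848 in siNCOA3 and 12.68 and 12.47 in siSHC1, so that 15.4% and 16.3% remained after siNCOA3. For the line, VIM and CD44 were looked for as present, and ESR1, PGR and CDH1 as low or absent, and they were found so. VIM ranged from 886.7 to 1020 FPKM and CD44 from 472.6 to 596.3. ESR1 was at most 0.0922, PGR was listed at 0 in all 6 libraries and CDH1 was at 0.0207 to 0.572. ERBB2 RNA, also looked for as low or absent, was detected in every library, at 26.88 to 35.47 FPKM. The protein of ERBB2 was not measured, so this level does not test the triple negative label. Of the markers of other cells, the leukocyte gene PTPRC was at most 0.0549 FPKM, no row matched the endothelial gene PECAM1, and the fibroblast gene COL1A1 was at 2.158 and 3.273 FPKM in siControl, 3.361 and 4.585 in siNCOA3 and 6.778 and 7.473 in siSHC1. COL1A1 therefore moved with siSHC1, and its part in the results was not tested. Depth could only be estimated roughly, from steps between low values that 46.7% to 48.3% of the ratios fell on. In relation to siControl at 24 h it came to 1.45 for siControl at 48 h, 1.2 and 1.31 for siNCOA3 and 1.02 and 1.01 for siSHC1.

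The promoters of the 3 members that were lower after siSHC1 in the whole-table test are shown first, as the regions from which these RNAs start. They are RefSeq sequences on GRCh38.p14, read 5′ to 3′ on the gene's own strand, and end 10 bases after the start. Each covers 260 bases. The E-box CACGTG, a site read by factors such as MYC, and TGACNNNGC, the core of the antioxidant response element read by NRF2, are in capitals wherever they occurred, on either strand.
SLC7A5 (chr16:87869498-87869757, minus strand): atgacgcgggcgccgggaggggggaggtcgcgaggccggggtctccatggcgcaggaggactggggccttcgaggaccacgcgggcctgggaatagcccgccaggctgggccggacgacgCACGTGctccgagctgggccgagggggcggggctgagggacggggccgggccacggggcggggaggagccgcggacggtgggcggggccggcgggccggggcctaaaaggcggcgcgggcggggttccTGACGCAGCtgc
SLC3A2 (chr11:62881449-62881708, plus strand): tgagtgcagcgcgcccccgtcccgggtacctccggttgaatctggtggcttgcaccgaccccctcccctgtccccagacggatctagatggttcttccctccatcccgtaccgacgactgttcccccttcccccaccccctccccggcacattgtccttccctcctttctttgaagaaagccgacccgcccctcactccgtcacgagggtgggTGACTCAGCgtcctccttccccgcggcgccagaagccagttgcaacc
SLC43A1 (chr11:57515693-57515952, minus strand): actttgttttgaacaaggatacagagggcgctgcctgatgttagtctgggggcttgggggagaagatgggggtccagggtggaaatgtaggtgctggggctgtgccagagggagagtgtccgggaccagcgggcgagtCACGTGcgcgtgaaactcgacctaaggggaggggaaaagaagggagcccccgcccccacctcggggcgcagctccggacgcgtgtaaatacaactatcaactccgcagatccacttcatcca
SLC7A5 held an E-box at position -130 from the start and an antioxidant response core at -2, SLC3A2 held the core at -37, and SLC43A1 held an E-box at -112. RefSeq listed other starts for SLC3A2 and SLC43A1, and those windows held neither motif.

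Over the 18 RefSeq windows of 300 bases that matched 9 of the 10 members, 3 held CACGTG, in SLC7A5, SLC43A1 and SLC1A5, against 7.26% of 35116 windows of all genes. The core TGACNNNGC was in 5 of the 18, in SLC7A5, SLC3A2, SLC7A1, SLC1A5 and SLC1A3, against 13.3% of all windows. TGATGNAAT, the form of the C/EBP-ATF response element searched for as a site of ATF4, was in 0 of the 18 and in 0.991% of all windows. These are matches of letters, searched on both strands with no 2 motifs overlapping in a member, and they show no binding. SLC7A11 was matched to no window.

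The word GCCCATC is shown because it was common in the 3′ UTRs of genes that were lower after siSHC1. It came from an earlier search over these same fold changes, so its count there is a description. Of 369 genes called lower after siSHC1 with a 3′ UTR in the GENCODE annotation of GRCh38, 153 (41.5%) held it, against 19 of 339 called higher (5.6%) and 680 of 10104 not called (6.73%). Among the 10 members it was in the 3′ UTRs of SLC7A5, SLC38A1 and SLC1A3. The 30 bases around each site are given on the RNA's own strand, written as DNA, with the word in capitals.
SLC7A5: acagctcagctGCCCATCccagtccctcgc
SLC38A1: tatgaaactggGCCCATCtgtatacaggct
SLC1A3: tcctgtggggaGCCCATCctctcgccaagc
The site began at base 102 of 2947 of the 3′ UTR in SLC7A5, at base 4872 in SLC38A1 and at base 1951 in SLC1A3. After siSHC1 these 3 genes differed from siControl by -1.26, -0.35 and 0.33 on the log2 scale. SLC3A2 and SLC43A1, which were called lower, did not hold the word, in shorter 3′ UTRs of 100 and 562 bases. Whether the word matches the siSHC1 siRNA could not be checked, because the sequence of that siRNA is not given. The part of this word in the differences was not tested, so they cannot be assigned to the loss of SHC1 itself.

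In siControl the 10 genes spanned a wide range of levels and fell into 3 tiers. SLC3A2 (mean of the 2 siControl libraries 138.9 FPKM), SLC7A5 (123.4 FPKM) and SLC1A5 (113.4 FPKM) were the highest. SLC38A2 (34.97 FPKM), SLC7A1 (33.93 FPKM) and SLC38A1 (27.69 FPKM) came next. SLC1A4 (6.701 FPKM), SLC7A11 (6.651 FPKM), SLC43A1 (4.306 FPKM) and SLC1A3 (4.24 FPKM) were the lowest. Over all 6 libraries, neighbours in this order had overlapping ranges except at the 2 steps between tiers. These were from SLC1A5 (92.92 to 136.5 FPKM) to SLC38A2 (34.26 to 52 FPKM), and from SLC38A1 (19.47 to 28.8 FPKM) to SLC1A4 (4.022 to 9.066 FPKM). Only neighbours were compared, and the upper 2 tiers did overlap: in siSHC1 at 48 h SLC7A5 (48.28 FPKM) lay below SLC38A2 (52 FPKM). By mean FPKM, SLC3A2 lay above 94.9% of the tested genes and SLC43A1 above 18.6%.

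**Figure D1:**
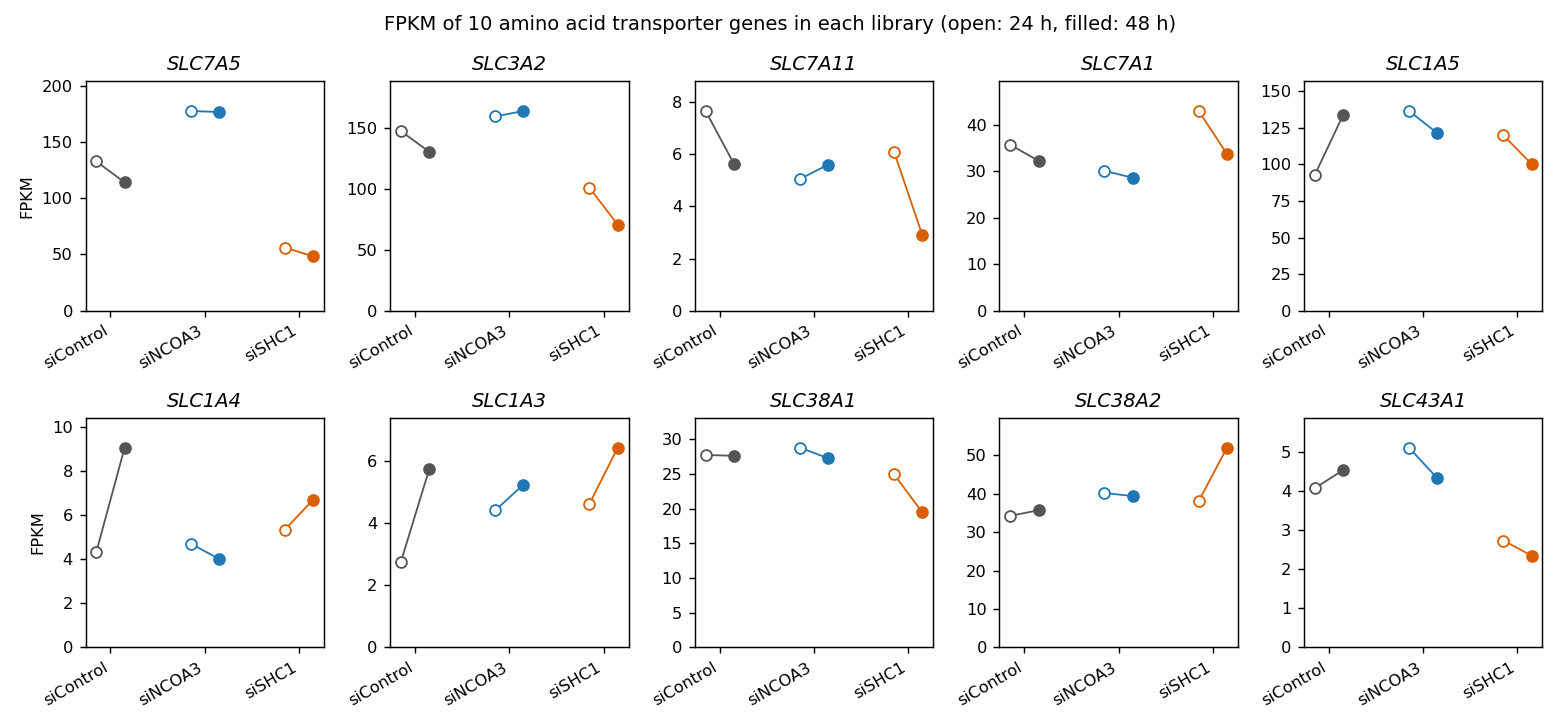
FPKM of each of the 10 genes (vertical axis from 0, own scale in each panel) by siRNA, with the 24 h library as an open and the 48 h library as a filled point. SLC7A5, SLC3A2 and SLC43A1 sit lowest in both siSHC1 libraries, and SLC7A5 sits highest in both siNCOA3 libraries, at 177.6 and 176.7 FPKM.

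Summed over the 10 genes, the level was 489.6 FPKM at 24 h and 498.8 at 48 h in siControl, 592 and 576.4 in siNCOA3 and 401.7 and 342.6 in siSHC1. The siSHC1 sums were below and the siNCOA3 sums above both siControl sums. SLC7A5, SLC3A2 and SLC1A5 together made up 76.2% and 75.8% of the sum in siControl, 80% and 80.2% in siNCOA3 and 68.9% and 64% in siSHC1.

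SLC7A5 (LAT1), the light chain that carries leucine and other large neutral amino acids, showed the widest spread among the 10 genes. It stood at 132.7 and 114.1 FPKM in siControl, 177.6 and 176.7 in siNCOA3 and 56.14 and 48.28 in siSHC1. The 3 siRNAs did not overlap: siSHC1 was lowest, siControl between and siNCOA3 highest, at both times. After siSHC1, scaled FPKM were 39.5% of siControl at 24 h and 43.1% at 48 h, and the fitted difference was -1.26 ± 0.09, or 2.4-fold lower. That placed SLC7A5 at rank 23 from the lowest of the 11690 genes, and it was called. After siNCOA3 the level was 124% of siControl at 24 h and 156% at 48 h, with a fitted difference of 0.47 ± 0.09 that was not called and ranked 97 from the highest. Between siSHC1 and siNCOA3 SLC7A5 differed by -1.73 ± 0.09, or 3.32-fold, which was rank 6 from the lowest.

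SLC3A2 (4F2hc, CD98), the heavy chain that carries SLC7A5 and SLC7A11 to the surface, was also lower after siSHC1. Its levels were 147.5 and 130.4 FPKM in siControl, 159.5 and 164 in siNCOA3 and 100.9 and 70.63 in siSHC1. Both siSHC1 libraries lay below the other 4. SLC3A2 was at 64% of siControl at 24 h and 55.1% at 48 h, with a fitted difference of -0.74 ± 0.13, or 1.68-fold lower, and it was called. Its call was lost without the 24 h siControl library (-0.72), without the 48 h siControl library (-0.78) and without the 48 h siSHC1 library (-0.56). After siNCOA3 it was 100% of siControl at 24 h and 127% at 48 h, with a fitted difference of 0.17 ± 0.13 that was not called.

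The light chain and heavy chain did not move in the same proportion. The ratio of SLC7A5 to SLC3A2 FPKM was 0.9 and 0.875 in siControl, 1.11 and 1.08 in siNCOA3 and 0.556 and 0.684 in siSHC1. Every siNCOA3 ratio was above and every siSHC1 ratio below the siControl ratios, with 2 libraries each. Over the 6 libraries the log2 levels of SLC7A5 and SLC3A2 had a Pearson r of 0.96, as a description over points that share the siRNAs and times.

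**Figure D2:**
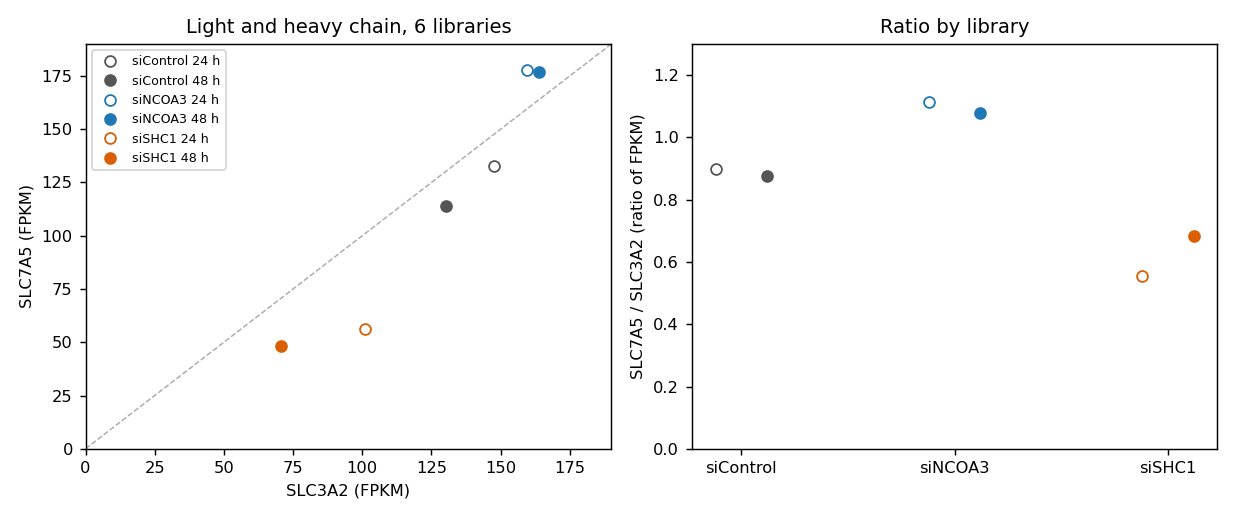
Left, FPKM of SLC7A5 against SLC3A2 in each of the 6 libraries, with equal levels on the dashed line; right, the ratio of the FPKM by siRNA (open points 24 h, filled points 48 h). The siSHC1 libraries lie lowest for both genes, with ratios of 0.556 and 0.684, and the siNCOA3 libraries lie above the dashed line.

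SLC7A11 (xCT), the other light chain, exchanges glutamate for cystine, a source of cysteine for glutathione. Its level was 7.663 and 5.638 FPKM in siControl, 5.047 and 5.604 in siNCOA3 and 6.097 and 2.894 in siSHC1. The lowest value was siSHC1 at 48 h, and the siSHC1 library of 24 h lay between the siControl libraries, so the groups overlapped. The fitted difference was -0.56 ± 0.22 after siSHC1, with 74.4% of siControl at 24 h and 52.3% at 48 h, and -0.31 ± 0.22 after siNCOA3, with 60.9% at 24 h and 100.3% at 48 h. Neither was called. SLC7A11 stood at 5.77% and 4.94% of the SLC7A5 level in siControl, at 2.84% and 3.17% in siNCOA3 and at 10.9% and 5.99% in siSHC1.

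SLC43A1 (LAT3), a facilitative carrier of leucine and other large neutral amino acids that needs no heavy chain, was the third member called lower after siSHC1. It stood at 4.075 and 4.538 FPKM in siControl, 5.111 and 4.326 in siNCOA3 and 2.735 and 2.347 in siSHC1. Both siSHC1 libraries lay below the other 4, at 62.8% and 52.7% of siControl. The fitted difference after siSHC1 was -0.61 ± 0.12, on a scale where the added 1 FPKM understates the fold of so low a gene. With 0.1 added in place of 1, that difference was -0.77. After siNCOA3 the fitted difference was 0.07 ± 0.12, which was not called. At this low level the call was less firm: it was kept in 4 of the 12 alternative settings that gave a value, with differences from -0.77 to -0.51, and was lost without any 1 siControl or siSHC1 library or the 24 h siNCOA3 library. SLC7A5 and SLC43A1 were both lower in each siSHC1 library than in any other, although SLC7A5 was present at a far higher level. By scaled FPKM, 23.9% of all tested genes lay below both siControl libraries in both siSHC1 libraries, and 28.8% below both siNCOA3 libraries. The list was selected with these differences known, so nothing is read from the pair. SLC43A2, another SLC43 gene outside the members, differed by 0.03 ± 0.15 after siSHC1 and was not called.

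SLC7A1 (CAT1), which takes up arginine and lysine, lay the other way round between the 2 knockdowns. Its level was 35.66 and 32.2 FPKM in siControl, 30.06 and 28.56 in siNCOA3 and 42.92 and 33.68 in siSHC1. The siNCOA3 libraries were the lowest, and the siSHC1 libraries overlapped those of siControl. SLC7A1 differed from siControl by -0.25 ± 0.10 after siNCOA3 and by 0.13 ± 0.10 after siSHC1, and neither was called. Between siSHC1 and siNCOA3 the difference was 0.38 ± 0.10, called only where the filter was raised to 5 FPKM.

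None of the 3 SLC1 members was called in any comparison between siRNAs or times. SLC1A5 (ASCT2), the sodium-dependent glutamine exchanger, stood at 92.92 and 133.8 FPKM in siControl, 136.5 and 121.3 in siNCOA3 and 119.9 and 100.2 in siSHC1. The 24 h siControl library was the lowest and the 48 h one the second highest, so siControl spanned both siSHC1 libraries. SLC1A5 was therefore 0.27 higher after siSHC1 at 24 h and 0.39 lower at 48 h (difference -0.39), with a fitted difference of -0.06 ± 0.16. After siNCOA3 it differed by 0.44 at 24 h and -0.13 at 48 h, and by 0.16 ± 0.16 in the fit.

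SLC1A4 (ASCT1), which exchanges alanine, serine and cysteine, was highest in one siControl library. It stood at 4.336 and 9.066 FPKM in siControl, 4.712 and 4.022 in siNCOA3 and 5.34 and 6.701 in siSHC1. Against that 48 h siControl library the siNCOA3 level was 44.8%, while at 24 h it was 100.5%. The fitted differences were -0.49 ± 0.22 after siNCOA3 and -0.10 ± 0.22 after siSHC1, and neither was called. SLC1A5 exceeded SLC1A4 by 21.4-fold and 14.8-fold in siControl, 29-fold and 30.2-fold in siNCOA3 and 22.4-fold and 15-fold in siSHC1.

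SLC1A3 (EAAT1), which takes up glutamate and aspartate, was low throughout. It stood at 2.756 and 5.725 FPKM in siControl, 4.398 and 5.232 in siNCOA3 and 4.61 and 6.415 in siSHC1. In all 3 siRNAs the 48 h library was the higher, by 0.76, 0.23 and 0.42 on the log2 scale. The fitted differences from siControl were 0.17 ± 0.15 after siNCOA3 and 0.33 ± 0.15 after siSHC1, neither called, and the siControl libraries spanned both siNCOA3 libraries.

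The SLC38 carriers SLC38A1 (SNAT1) and SLC38A2 (SNAT2), which take up glutamine and alanine with sodium, lay on opposite sides of siControl after siSHC1. SLC38A1 stood at 27.75 and 27.63 FPKM in siControl, 28.8 and 27.28 in siNCOA3 and 24.94 and 19.47 in siSHC1. Both siSHC1 libraries lay below the other 4, and the fitted difference of -0.35 ± 0.10 was not called. SLC38A2, whose RNA is known to rise when amino acids are short, stood at 34.26 and 35.69 FPKM in siControl, 40.2 and 39.4 in siNCOA3 and 38.08 and 52 in siSHC1. Its 48 h siSHC1 library was the highest of the 6, at 148% of siControl, against 104% at 24 h, and the fitted difference of 0.31 ± 0.13 was not called. The difference rested on the 48 h siSHC1 library: without it SLC38A2 differed by 0.06, not called, and without the 24 h siSHC1 library by 0.55, called. The ratio of SLC38A2 to SLC38A1 was 1.23 and 1.29 in siControl, 1.4 and 1.44 in siNCOA3 and 1.53 and 2.67 in siSHC1, so the siControl ratios were the lowest and the ratio at 48 h after siSHC1 stood apart.

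**Figure D3:**
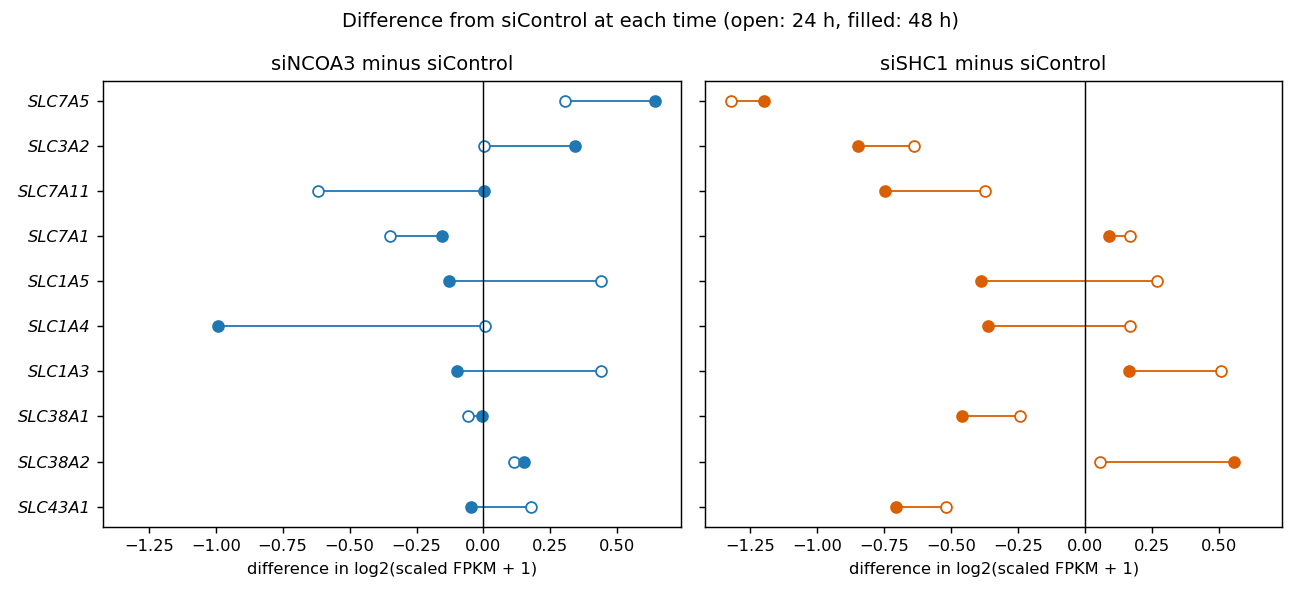
Difference of each gene from siControl of the same time in log2(scaled FPKM + 1), for siNCOA3 (left) and siSHC1 (right), with open points for 24 h and filled points for 48 h, 1 library each. SLC7A5 lies farthest from 0 after siSHC1, at -1.32 and -1.20. SLC1A5 and SLC1A4 change side between the times after siSHC1, and SLC1A5, SLC1A4, SLC1A3, SLC43A1 and SLC7A11 do so after siNCOA3.

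Counted together, 3 of the 10 members were called lower after siSHC1 (SLC7A5, SLC3A2 and SLC43A1) and 0 higher, beside 6.42% of all tested genes called in either direction, 3.32% called lower and 3.11% called higher. Unadjusted p from limma was under 0.05 for 5 of the 10 members and for 3077 of all 11690 genes. Because the list was drawn up with this comparison known, nothing is read from that share. Without either siControl library or the 48 h siSHC1 library, 1 member (SLC7A5) was called. The median difference of the members was -0.22, beside 0.00 (0.0035) over all tested genes. Of the members, 4 lay below both siControl libraries in both siSHC1 libraries by scaled FPKM (SLC7A5, SLC3A2, SLC38A1 and SLC43A1), where 23.9% of all genes did so, and 1 lay above (SLC38A2), where 24.1% did. Over all genes 363 were called higher and 388 lower, a split that moved to 209 and 496 with libraries scaled to equal totals; SLC7A5, SLC3A2 and SLC43A1 were called lower under both.

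After siNCOA3, 0 of the 10 members were called by limma, beside 0.111% of all tested genes, which were 13 genes, each of them lower. Unadjusted p was under 0.05 for 2 members and for 1226 genes. The members' median was 0.10, beside -0.00060 over all genes. By scaled FPKM 3 members lay above both siControl libraries in both siNCOA3 libraries (SLC7A5, SLC3A2 and SLC38A2, of which SLC3A2 was higher at 24 h by only 0.00060 on the log2 scale than the 24 h siControl library), where 20.1% of all genes did, and 1 lay below (SLC7A1), where 19.3% did. The comparisons of siNCOA3 and of siSHC1 with siControl use the same 2 siControl libraries, so their values for a gene are not independent.

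Set directly against siNCOA3, siSHC1 again had SLC7A5, SLC3A2 and SLC43A1 lower, at -1.73 ± 0.09, -0.91 ± 0.13 and -0.68 ± 0.12, which makes 3 of 10 members called, beside 9.74% of all genes. Of all genes 625 (5.35%) were called higher and 514 (4.4%) lower, or 510 and 646 with equal totals. By scaled FPKM SLC1A5 and SLC38A1 also lay below both siNCOA3 libraries in both siSHC1 libraries, which makes 5 of 10 members where 28.8% of all genes did so, and SLC7A1 and SLC1A4 lay above, 2 of 10 where 29.5% did. SLC38A1 differed by -0.32 ± 0.10 and SLC1A4 by 0.40 ± 0.22, and neither was called. The call of SLC43A1 was lost without any 1 library of siNCOA3 or siSHC1, with differences of -0.85 to -0.61 over all alternatives.

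Between 48 h and 24 h, 0 members were called by limma, beside 0.0257% of all tested genes (3 genes, 0.0171% called higher and 0.00855% lower), and unadjusted p was under 0.05 for 2 members and for 1660 of all genes. The fitted difference was largest in SLC1A3, at 0.47 ± 0.12, and in SLC7A11, at -0.39 ± 0.18. By single libraries, siControl showed the widest moves for SLC1A4 (0.83) and SLC1A3 (0.76). In siNCOA3 the 10 differences stayed between -0.18 (SLC43A1) and 0.23 (SLC1A3). In siSHC1 SLC7A11 was 0.85 lower at 48 h (difference -0.85), SLC3A2 0.49 lower (difference -0.49) and SLC38A2 higher by 0.46.

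A list of 44 other amino acid transporters was described beside the members; 43 had a row and 18 of them passed the filter on low values. Like the members, these genes were listed with earlier results of these data known. Their calls and p-values only place them among all tested genes and are no independent test. After siSHC1, 0 of the 18 were called by limma, beside 6.42% of all tested genes. Of the 18, 2 had an unadjusted p under 0.05, and the median was 0.06. After siNCOA3, 0 were called, beside 0.111% of all tested genes, with 2 at an unadjusted p under 0.05 and a median of 0.08. After siSHC1 the lowest of them were SLC6A9, a glycine transporter, at -0.64 ± 0.19 (limma adjusted p = 0.0916) and SLC38A6 at -0.51 ± 0.24 (limma adjusted p = 0.234), and the highest was SLC36A1, a proton-coupled carrier, at 0.35 ± 0.15 (limma adjusted p = 0.202). SLC7A6, another light chain of SLC3A2, stood at 13.36 and 11.55 FPKM in siControl, 16.76 and 15.74 in siNCOA3 and 15.51 and 8.965 in siSHC1. Its siSHC1 libraries lay on both sides of siControl, unlike those of SLC7A5. Like those of SLC7A5, they lay below both siNCOA3 libraries, where 28.8% of all genes did so by scaled FPKM. That fitted difference was -0.41 ± 0.15, not called. Between siSHC1 and siNCOA3, 0 of the 18 were called by limma, beside 9.74% of all tested genes. Of the 18, 6 had an unadjusted p under 0.05 there, and the median was -0.01.

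**Figure D4:**
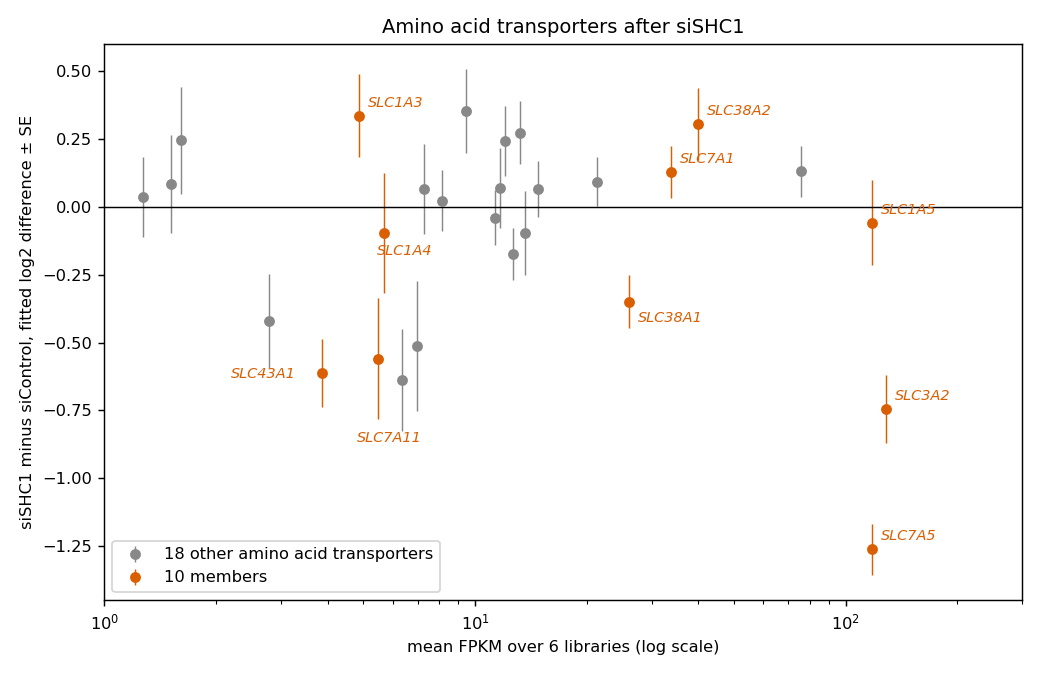
Fitted siSHC1 minus siControl difference (log2 scale, bars ± SE) against mean FPKM over 6 libraries (log axis) for the 10 members and the 18 other amino acid transporters that passed the filter. SLC7A5 and SLC3A2 combine a high level with differences of -1.26 and -0.74, and the lowest of the other transporters is SLC6A9 at -0.64.

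Inside the cell, 8 of 10 listed mitochondrial amino acid carriers were tested. The list was chosen with earlier results known, so its calls and adjusted p-values only place its genes among all tested genes. SLC25A44, which carries branched-chain amino acids into mitochondria, fell after siSHC1 by 0.79 ± 0.11 on the log2 scale (limma adjusted p = 0.0141), from 10.64 and 11.16 FPKM in siControl to 5.681 and 6.45. It was the only 1 of the 8 called after siSHC1 against siControl, beside 6.42% of all tested genes. Of the 8, 5 had an unadjusted p under 0.05 in limma, as had 3077 of all 11690 genes. The median of the 8 was -0.22, beside 0.0035 over all tested genes, with 6 below 0 and 2 above. Against siNCOA3, 2 of the 8 were called, both lower, beside 9.74% of all tested genes. They were SLC25A44 (-0.85 ± 0.11, limma adjusted p = 0.00773) and SLC25A13, an aspartate-glutamate carrier (-0.59 ± 0.10, limma adjusted p = 0.0209). The call of SLC25A44 against siControl was lost without either siControl library, and that of SLC25A13 without the 48 h siNCOA3 or siSHC1 library, with differences over all alternatives of -0.88 to -0.69 and -0.71 to -0.47. Of 96 listed genes with a 3′ UTR, 5 held the word GCCCATC: SLC25A44, SLC6A9 (-0.64), MTOR (-0.33), SLC36A1 (0.35) and SESN3 (0.44), with the difference after siSHC1 in brackets, and of these only SLC25A44 was called.

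Among 34 genes that sense amino acids upstream of mTORC1, all tested, 1 was called after siSHC1, beside 6.42% of all tested genes. These genes too were listed with earlier results known, so adjusted p-values are given only to place the called gene. LAMTOR1, the membrane anchor of the Ragulator complex at the lysosome, fell by 0.79 ± 0.09 (limma adjusted p = 0.0101), from 63.49 and 64.95 FPKM in siControl to 34.93 and 40.44. Without the 24 h siControl library it was not called, and its differences over all alternatives were -0.92 to -0.67. Against siNCOA3, LAMTOR1 was again the 1 gene of the list called, beside 9.74% of all tested genes. There it differed by -0.76 ± 0.09 (limma adjusted p = 0.00775), kept in 12 of 13 alternatives (-0.88 to -0.63). The list's median was 0.09 after siSHC1 and 0.10 after siNCOA3. After siNCOA3 0 of these genes were called by limma, beside 0.111% of all tested genes, and 1 had an unadjusted p under 0.05.

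The response to amino acid shortage runs through the transcription factor ATF4, whose known targets include SLC7A5, SLC3A2, SLC7A11 and SLC38A2. The RNA of ATF4 itself, named here outside the rule, ranged from 71.18 to 95.05 FPKM. It differed by 0.05 ± 0.11 after siSHC1 (limma adjusted p = 0.823). ATF4 protein was not measured, so the RNA level does not show whether the response was active. Of 24 listed genes, ATF4 and its targets outside the members, 21 were tested, with medians of -0.01 after siSHC1 and -0.13 after siNCOA3. Earlier results were known when they were listed, so calls and adjusted p-values only place them among all tested genes. VLDLR, a lipoprotein receptor, was the 1 of the 21 called after siSHC1, beside 6.42% of all tested genes. It rose by 0.74 ± 0.11 (limma adjusted p = 0.0193). Between siSHC1 and siNCOA3, 3 of the 21 were called, beside 9.74% of all tested genes. VLDLR (0.83 ± 0.11), DDIT3 (0.48 ± 0.10) and DDIT4 (0.90 ± 0.18) were higher after siSHC1, with limma adjusted p of 0.00921, 0.029 and 0.035. Each of these calls was lost without at least 1 library: VLDLR against siControl without either siControl library or the 48 h siSHC1 library (0.65 to 0.82 over all alternatives), VLDLR against siNCOA3 without the 48 h siNCOA3 library (0.72 to 0.94), DDIT3 without any 1 library of siNCOA3 or siSHC1 (0.44 to 0.52), and DDIT4 without either siSHC1 library or the 48 h siNCOA3 library (0.55 to 1.25). After siNCOA3 0 of the 21 were called by limma against siControl, beside 0.111% of all tested genes, with 3 at an unadjusted p under 0.05.

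Cystine taken up through SLC7A11 feeds glutathione synthesis, of which 11 of 12 listed genes were tested. Of the 11, 1 was called after siSHC1, beside 6.42% of all tested genes, and 3 against siNCOA3, beside 9.74%. Both this list and that of glutamine and glutamate metabolism were chosen with earlier results known. Their calls and adjusted p-values only place genes among all tested genes. GPX4, the peroxidase that clears lipid peroxides with glutathione, rose after siSHC1 by 0.35 ± 0.08 (limma adjusted p = 0.0476), from 242.7 and 315.5 FPKM in siControl to 328.2 and 401.3, and its call was kept in 4 of 13 alternative settings (0.28 to 0.43). Against siNCOA3, GPX4 (0.38 ± 0.08), GGT1 (1.41 ± 0.21) and TXNRD1 (0.28 ± 0.07) were higher, with adjusted p of 0.0325, 0.0155 and 0.0494. Of 13 genes of glutamine and glutamate metabolism, 11 were tested and 1 was called after siSHC1, beside 6.42% of all tested genes. GFPT1, which uses glutamine to make hexosamines, rose by 0.46 ± 0.10 (limma adjusted p = 0.0434), kept in 5 of 13 settings (0.39 to 0.54). Against siNCOA3, GFPT1 was again the 1 gene of this list called, beside 9.74% of all tested genes. There it was higher by 0.51 ± 0.10 (limma adjusted p = 0.0274), kept in 8 of 13 settings (0.42 to 0.59). That call was lost without any 1 siNCOA3 or siSHC1 library. The calls of GPX4 and GFPT1 against siControl were lost without any 1 siControl or siSHC1 library. Against siNCOA3, TXNRD1 (0.20 to 0.35 over all alternatives) lost its call without any 1 of the 6 libraries, GPX4 (0.26 to 0.49) without the 24 h siControl, 48 h siNCOA3 or 48 h siSHC1 library, and GGT1 (1.03 to 1.79) without the 48 h siNCOA3 library.

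Genes outside the list whose levels ran most like each member were found by Pearson r over the 6 libraries among the 2745 tested genes that averaged 5 FPKM or more and ranged over 0.5 or more on the log2 scale. With 6 points that share 3 siRNAs and 2 times, high values of r are common: 134 genes reached 0.95 with SLC7A5, 98 with SLC3A2, 108 with SLC43A1 and 51 with SLC38A1. The nearest to SLC7A5 were KCTD5 (r = 0.999) and IRAK1 (0.994), and KCTD5 stood at 23.83 and 23.92 FPKM in siControl, 26.95 and 27.21 in siNCOA3 and 19.25 and 18.41 in siSHC1. The nearest to SLC3A2 were GINS4 (0.999) and MINA (0.994), to SLC43A1 CDC23 (0.995) and ILDR2 (0.995), and to SLC38A1 WHSC1 (0.993) and CHEK1 (0.993). Fewer genes ran like the other members: 14 reached 0.95 with SLC38A2, led by LMBR1L (0.994) and CHPF (0.99), and 12 with SLC1A3, led by STK19 (0.988) and SLC11A2 (0.965). SLC1A4 had 10, led by H6PD (0.985) and PHYHD1 (0.984), SLC7A11 had 6, led by MARCH3 (0.99) and FAIM (0.987), and SLC7A1 had 6, led by COL7A1 (0.995) and GRPEL2 (0.97). SLC1A5 had 0, its nearest being RP11-343C2.11 (0.932) and RUFY2 (0.899). Among the members, the highest correlations beside that of SLC7A5 with SLC3A2 were SLC7A5 with SLC43A1 (0.955), SLC3A2 with SLC38A1 (0.949) and SLC3A2 with SLC43A1 (0.929).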

How the data were processed

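RNA was extracted with Trizol and made into libraries with a stranded mRNA kit, per the labels' protocols. Per the submitters' processing notes, the tools were STAR, Cufflinks and DESeq2 and the build was hg19; roles and versions are not recorded there. The values the authors deposited are FPKM, although the table is named for read counts: they are not whole, and only 46.7% to 48.3% of the ratios between low values (under 0.3 FPKM) fell within 0.02 (log2) of a step of whole fragments, so counts were not recovered. FPKM totals were 495518 to 553073 per library, with 14796 to 15221 genes above 0. No source used here names the annotation or says whether strand was used. The copies SLC7A5P1 and SLC7A5P2 of SLC7A5 have no row, so reads shared with them could not be told apart.

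FPKM were scaled by the median of ratios over 11042 genes with at least 1 FPKM in all 6 libraries (factors 0.947 to 1.02). Genes with at least 1 scaled FPKM in at least 2 libraries were fitted on log2(scaled FPKM + 1) with limma 3.58.1 in R 4.3.3 (lmFit, eBayes with trend and robust moderation), with additive siRNA and time terms and 2 residual degrees of freedom. The p-values rest on the spread among 6 libraries of unstated origin, which may be technical, and fold changes of low genes are understated by the pseudocount of 1. A difference between single libraries has no replicate check. The fit was also run on simulated data with independent noise, without the scaling or the filter. That run does not cover those steps or responses that differ between the times.

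The members and the 11 gene lists were chosen with earlier results of these data known. The rule for named genes takes the 10 members, NCOA3 and SHC1, every called gene of a described list (with none called, the 4 with the largest differences in each comparison with siControl, of which some are named), and the 2 most similar patterns per member. Alternatives changed the scaling, the filter, the pseudocount (0.1), the moderation or the model terms, or left out 1 library. Motif searches used Python 3.11.15.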

Additional observations from a re-analysis of the deposited data

Results flagged for a closer look

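SLC1A5, the glutamine exchanger, lay on opposite sides of siControl at the 2 times after siSHC1. The difference in log2(scaled FPKM + 1) was 0.27 at 24 h and -0.39 at 48 h, with 1 library behind each end of each difference, and the change of direction was not tested. The siControl libraries themselves stood at 92.92 FPKM at 24 h and 133.8 at 48 h, and the siSHC1 libraries at 119.9 and 100.2. SLC1A4 also changed side after siSHC1, at 0.17 at 24 h and -0.36 at 48 h. It was not flagged, because the flag asked for a difference of at least 0.2 at both times.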

How the results depend on the processing

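The call of SLC7A5 after siSHC1 was kept in 12 of 13 alternatives, with differences from -1.38 to -1.15, and was lost with no filter on low values. SLC3A2 kept its call in 7 of 13 (-0.93 to -0.56) and SLC43A1 in 4 of 12 (-0.77 to -0.51). SLC43A1 had 12 alternatives because it did not pass a filter of 5 FPKM. Its call was lost with no scaling, no filter, no time term or some single libraries left out. Members called after siSHC1 numbered 3; they were 0 with no filter (4 at an unadjusted p under 0.05 in limma), 1 with no time term, and 1 to 3 with 1 library left out, the 1 being SLC7A5 without either siControl library or without the 48 h siSHC1 library. Against siNCOA3 they were 0 with no filter (5 at an unadjusted p under 0.05) and 2 to 3 with 1 library left out. After siNCOA3 and over time 0 members were called with any 1 library left out. With no filter, genes called numbered 0 for siNCOA3 (1375 unadjusted), 2 for siSHC1, 4 for siSHC1 against siNCOA3 and 0 for time (1698 unadjusted). Without trend and robust moderation they were 3, 316 and 742 for the 3 siRNA comparisons in that order. With no time term they were 226 for siSHC1 and 450 against siNCOA3, with no scaling 7 for siNCOA3, and with no siRNA term 1 for time. With 1 library left out, genes called were 2 to 38 for siNCOA3, 62 (without siControl at 24 h) to 867 for siSHC1, 233 (without siNCOA3 at 48 h) to 1034 for siSHC1 against siNCOA3, and 0 to 64 for time; a group left with 1 library is then assumed to vary like the others. The cause was not tested. Of 516 member values under the alternatives, 470 moved by less than the gene's residual standard deviation in the main fit. The other 46 moved by more and 0 called values reversed. With 1 library for each siRNA and time, that deviation also holds any way in which the response differed between the times. Of the listed genes, LAMTOR1 after siSHC1 kept its call in 11 of 13 alternatives, SLC25A44 in 10 and VLDLR in 9, while TXNRD1 against siNCOA3 kept it in 2. The same alternatives for listed genes and targets were added after seeing the data. The labels carry no replicate numbers, and the time term of the model sets libraries of the same time against each other. Depth is not given as counts, so its effect on precision could not be set apart from the spread between libraries; standard errors of the members against siControl ran from 0.09 (SLC7A5) to 0.22 (SLC7A11 and SLC1A4).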
